A study of Homo sapiens with 5 samples.

Results

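In BEAS-2B cells treated with 1 μM inorganic arsenic (iAs) for 6 h, 7334 HIF1α-enriched regions lay at start sites of protein-coding genes and had no peak in any other library of the study. These are called iAs-only regions here. They made up 7334 of the 21088 regions merged over the study, and 79.8% of the 9191 regions that only the HIF1α library of iAs-treated cells held. The regions were chosen by peak presence and position: each overlapped by at least 1 bp an interval of the HIF1α library from iAs-treated cells, overlapped none of the HIF1α control, Nrf2 control and Nrf2 iAs libraries, and had its centre within 1 kb of the start site of a protein-coding transcript. The presence of a peak and its distance from a start site are therefore not results here, and were not tested.

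BEAS-2B is an immortalized line of human bronchial epithelial cells. After serum starvation overnight, cells were given 1 μM iAs or no iAs for 6 h, and chromatin was immunoprecipitated (ChIP) with an antibody against Nrf2 or HIF1α. This gave 4 ChIP libraries, 1 per antibody and condition, with 3204 peaks for Nrf2 in control cells, 7743 for Nrf2 with iAs, 6008 for HIF1α in control cells and 12826 for HIF1α with iAs. The sample labels name antibodies from Santa Cruz (Nrf2) and Abcam (HIF1α), whereas the methods name Active Motif, and the identity of the cells could not be checked against marker genes because the peak lists hold no expression. With 1 library per group there is no replicate check: a region absent from the control library means only that no peak was called there, at a read depth that is unknown here, and the intervals and p-values below count regions and do not cover the variation between cultures.

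HIF1α is the oxygen-regulated subunit of HIF1. In well-oxygenated cells prolyl hydroxylases of the EGLN family mark it for the VHL ubiquitin ligase, and when this stops it pairs with ARNT on the HIF response element (HRE), whose core is written ACGTG or GCGTG. Its established targets encode glucose transporters, glycolytic enzymes and angiogenic factors. Promoters that are rich in CpG dinucleotides carry, beside such elements, sites of general promoter factors: the ETS family (searched as CCGGAAG), YY1 (AAGATGGCG), CREB and ATF factors at the cAMP response element or CRE (TGACGTCA), NRF1 (GCGCANGCG), NFY (CCAATNNG), Kaiso (TCTCGCGA), THAP11 (ACTACAATT), E2F (TTCCCGC), and SP and KLF factors at the GC box (GGGCGG).

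The sequences below come from hg19 and are written 5′ to 3′ on the strand named, with the motif in capitals. The first set shows the A form of the HRE core at regions of genes in the HIF pathway and in glucose metabolism, and at 2 of the 10 widest regions. Introns and exons are those of protein-coding transcripts, and a match in an intron of one transcript can lie upstream of the start site of another.

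HEY2 (chr6:126069725-126069754, minus strand, intron): cgtgccttggacaACGTGggttgtataaaa
SCO2 and TYMP (chr22:50964098-50964127, plus strand, intron): ccgccgggggtcACGTGttcatcgagacgg
VEGFA (chr6:43739097-43739126, plus strand, intron): tcccggctggggACGTGcgtgcgagcgcgc
EPAS1 (chr2:46525465-46525494, minus strand, intron): gagaaaaatagagACGTGgatgctgcccca
HIF1A (chr14:62161950-62161979, minus strand, upstream of the gene): ggctgcgacgctcACGTGctcgtctgtgtt
HK1 (chr10:71078318-71078347, plus strand, intron): catcggctccctACGTGggggacgtgcagg
LDHA (chr11:18417550-18417579, minus strand, intron): gcagacgccagcaACGTGaagcctagctgg
PGM1 (chr1:64059442-64059471, plus strand, intron): ggcgcgtgtgcgACGTGcggcccgcggcgc
GFPT2 (chr5:179779839-179779868, plus strand, coding sequence): ggcgactgggagACGTGgaggagagcgacc
UAP1 (chr1:162531650-162531679, plus strand, intron): ccacgcgctcagACGTGgacacgcgtcgca
SHMT1 (chr17:18266667-18266696, minus strand, intron): ggcgtcgctaggtACGTGcgcgggccgtgt

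The second set shows 3 motifs of promoter factors on which the comparison with HIF1α regions present in both conditions turns. Capitals mark the YY1 motif at NCOR1, MAML1 and ABI2, the ETS motif at ATF4 and SHISA2, and the CRE at RCE1 and RAI1.

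NCOR1 (chr17:16118825-16118854, minus strand, untranslated exon): ggggttgagtcAAGATGGCGgccaaggtgg
MAML1 (chr5:179159834-179159863, plus strand, untranslated exon): aaacaattttAAGATGGCGgccgcggcggt
ABI2 (chr2:204193225-204193254, plus strand, coding sequence): ggaggatgtgAAGATGGCGgagctgcagat
ATF4 (chr22:39916259-39916288, plus strand, untranslated exon): ctgcgctgacaCCGGAAGcgaggcgtgtct
SHISA2 (chr13:26625397-26625426, plus strand, untranslated exon): ggggctgtcgtCCGGAAGcctctggaggtt
RCE1 (chr11:66610856-66610885, plus strand, untranslated exon): gcgccgcggccTGACGTCAcccacacctcc
RAI1 (chr17:17585760-17585789, plus strand, intron): cccttcggggaTGACGTCAcgggcgggggc

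These are matches of letters, not shown to be bound. Measured from the nearest start site of a protein-coding transcript, the HRE cores lay upstream at SCO2 and TYMP (79 bp), HIF1A (267 bp), HK1 (258 bp), LDHA (261 bp), PGM1 (24 bp) and SHMT1 (21 bp). They lay downstream at HEY2 (929 bp), EPAS1 (933 bp), VEGFA (127 bp), GFPT2 (47 bp) and UAP1 (152 bp). The ETS motif lay 294 bp upstream at ATF4 and 743 bp downstream at SHISA2. Over the 19515 canonical start sites of protein-coding genes, the 100 bp on each side of the start site held ACGTG at 15.9%, GCGTG at 33.9%, the ETS motif at 11.3%, the YY1 motif at 2.73% and the CRE at 2.03%. Motifs were searched on both strands here and in all that follows, and ACGTG is contained in TACGTG and CACGTG.

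The iAs-only HIF1α regions were narrower than the HIF1α regions present in both conditions, and most were centred downstream of the start site. Their median width was 321 bp (quartiles 239 and 463 bp, range 188 to 1978 bp), compared with 546 bp for the 2109 HIF1α regions near start sites that were present in both conditions without Nrf2. Regions present in both conditions merge intervals of both HIF1α libraries, which can add to their width and to the share that covers a start site. The HIF1α interval of the iAs library alone had a median of 498 bp there and 321 bp at the iAs-only regions. The iAs-only regions were wider than the 481 HIF1α regions near start sites that only the control library held (median 239 bp) and the 1857 iAs-only HIF1α regions away from start sites (median 269 bp). The centre of the iAs-only regions near start sites lay at a median of 82 bp downstream of the nearest start site, with quartiles 52 bp upstream and 274 bp downstream. Of the 7334 regions, 33.6% had the centre upstream, 33.1% had it within 100 bp of a start site and 49.6% covered a start site, whereas 48.6%, 58.5% and 88.1% of the regions present in both conditions did so. The 481 control-only regions lay on the other side, with a median of 24 bp upstream and 59.9% of the centres upstream.

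The same shift appeared in the gene models. The centre fell in an intron at 37.3% of the iAs-only regions (95% Wilson interval 36.2 to 38.4%), in an untranslated exon at 29.0%, in coding sequence at 17.5%, and outside protein-coding transcripts at 16.2%. Among the regions present in both conditions, introns took 19.6% (17.9 to 21.3%), untranslated exons 38.8%, coding sequence 13.8% and the outside of transcripts 27.7%. The set of 202 regions gained with iAs by both factors resembled the HIF1α-only set in position, with a median of 85 bp downstream and 42.6% of the centres in introns (36.0 to 49.5%). Start sites of different genes on opposite strands, all within 1 kb of the centre, were found at 10.4% of the iAs-only regions and 16.5% of those present in both conditions. These values follow in part from the rule on distance, and are a description.

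**Figure D1:**
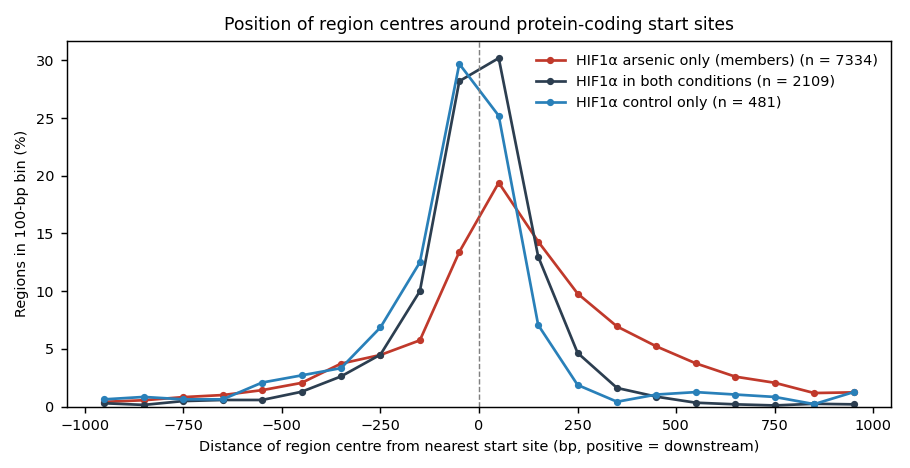
Distance of the region centre from the nearest protein-coding start site (x, in bp, positive downstream) against the share of regions per 100-bp bin (y) for 3 sets of HIF1α regions; the lines join bin shares and carry no error. The bin from 0 to 100 bp downstream held 19.4% of the iAs-only regions and 30.2% of those present in both conditions, and between 200 and 300 bp downstream the shares were 9.79% and 4.65%.

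At the limit of 1 kb, the regions just inside were those of ACVR2B and ESYT2 (998 bp from the start site), P2RX5 (999 bp), NPTX1 and TCFL5 (1000 bp). Just outside were those of KMT2D, CYP26B1 and DLGAP4 (1005 bp), KCNIP3 and HNRNPA0 (1007 bp). In the band from 900 to 1000 bp there were 119 regions, and 86 lay in the next 100 bp outward.

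The 10 widest regions lay at genes with varied functions. TIAM1, an exchange factor of the GTPase Rac, had the widest region (1978 bp, centre 347 bp downstream of the start), followed by PPARGC1B, a coactivator of mitochondrial genes (1971 bp, 944 bp downstream), and HEY2, a repressor downstream of Notch (1825 bp, 865 bp downstream). CBX8, a Polycomb protein, had a region of 1749 bp, and TLE1, a Groucho corepressor, one of 1728 bp. The start sites of SCO2, which assembles cytochrome c oxidase, and TYMP, thymidine phosphorylase, shared a region of 1721 bp. PXDC1 (1696 bp), ZFP36L2, an mRNA decay factor (1663 bp), ATF4, the transcription factor of the integrated stress response (1610 bp), and HNRNPU, a nuclear RNA-binding protein (1585 bp), made up the 10 widest. Of these 10 regions, those of HEY2 and of SCO2 and TYMP held ACGTG within 100 bp of the centre, and those of PPARGC1B, PXDC1 and ATF4 held GCGTG. With no heights deposited, width is the only measure of size, and it does not stand for occupancy.

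The iAs-only regions held the A form of the HRE core less often than HIF1α regions that were already present in control cells. Within 100 bp of the centre, ACGTG was found at 18% of the iAs-only regions and at 23.9% of those present in both conditions, a difference of -5.89 percentage points (95% Newcombe interval -7.95 to -3.91; Fisher's exact test, two-sided, adjusted exact p = 2.2e-08). The extended form TACGTG was also rarer, at 2.60% against 4.27% (adjusted exact p = 0.000389), and so was the E-box CACGTG, the site of MYC, MAX and USF factors, at 5.11% against 7.78% (adjusted exact p = 2.1e-05). For the G form, GCGTG, the shares were 41.4% and 44%, which did not pass the threshold (difference -2.60 points, interval -5.0 to -0.209, adjusted exact p = 0.0654). Among the 1857 iAs-only HIF1α regions away from start sites, ACGTG stood at 19.2% and GCGTG at 42.1%.

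An HRE core of either form was present at 51.5% of the iAs-only regions, at 57.0% of those present in both conditions, at 50.5% of the control-only regions, at 43.5% of all canonical start sites and at 36.7% of the 10123 start sites with no region. Base composition moved with these shares, and 92.9% of the iAs-only windows but 47.1% of the start sites with no region were CpG-rich (GC of at least 50% and an observed-to-expected CpG ratio of at least 0.6). When only CpG-rich windows were compared, ACGTG was found at 18.2% of the iAs-only regions (17.3 to 19.2%) and at 16.9% of the start sites with no region (15.9 to 18%). For GCGTG the corresponding shares were 42.2% (41.0 to 43.3%) and 41.1% (39.7 to 42.5%). Windows at start sites were centred on the start itself, and those of regions on the region centre. In CpG-rich windows the intervals of the 2 sets thus overlapped for both forms of the core, and the difference was not tested. The motif was only weakly placed at the centre: the central 100 bp held ACGTG at 9.50% of the iAs-only regions, which was 1.16 times the share in the same length at 400 to 500 bp from the centre, compared with a ratio of 1.66 for the regions present in both conditions. Among the 24 orders of the letters A, T, G and a CG pair, ACGTG ranked 8 by its share in the iAs-only regions, with TCGGA first at 26.4%. It ranked 8 also at the start sites with no region and at the control-only regions, and 7 at the regions present in both conditions. This likeness in rank is a description, and the control-only windows gave 21.4% for ACGTG (difference -3.46 points, interval -7.44 to 0.0906, adjusted exact p = 0.111).

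Several motifs of general promoter factors were rarer at the iAs-only regions than at the HIF1α regions present in both conditions. The ETS motif, a site of factors such as GABPA and ELK1, was found at 8.0% of them, compared with 16.3% of the regions present in both conditions (difference -8.26 points, interval -10 to -6.62, adjusted exact p = 4.0e-25) and 16.0% of the control-only regions (adjusted exact p = 1.5e-07). The YY1 motif stood at 1.13% against 4.65% (difference -3.52 points, interval -4.52 to -2.65, adjusted exact p = 7.2e-20) and the CRE at 0.709% against 2.47% (difference -1.76 points, interval -2.53 to -1.14, adjusted exact p = 4.8e-09). NRF1 (4.51% against 7.59%, adjusted exact p = 2.8e-07), NFY (4.73% against 7.30%, adjusted exact p = 2.1e-05) and Kaiso (0.423% against 1.42%, adjusted exact p = 1.2e-05) differed in the same direction. Against the control-only regions no difference was detected for NRF1, with 4.51% and 4.78% (interval of the difference -2.60 to 1.38 points, adjusted exact p = 0.800). At least one of the ETS, YY1, NRF1, CRE, Kaiso and THAP11 motifs was found at 13.9% of the iAs-only regions, at 29.4% of those present in both conditions and at 28.1% of the control-only regions, beside 22.9% of all start sites and 14.8% of the start sites with no region. A low share was not particular to this set: it was 14.4% at the 202 regions near start sites that both factors gained with iAs, and 8.19% at the iAs-only regions away from start sites. Fewer of the start sites with no region are CpG-rich, and among CpG-rich windows the iAs-only regions lay below them, with no test: the ETS motif stood at 8.32% (7.69 to 9.0%) against 12.5% (11.6 to 13.5%) and NRF1 at 4.80% against 11%. The YY1 motif stood there at 1.14% against 2.73%, the CRE at 0.748% against 2.16% and Kaiso at 0.440% against 1.2%. These windows were placed differently, on the start itself for start sites and on the region centre for regions. Only 33.1% of the iAs-only centres lay within 100 bp of a start site. In those, CpG-rich or not, ETS stood at 13.3%, YY1 at 2.43%, the CRE at 1.53%, NRF1 at 7.67% and Kaiso at 0.866%. How much of the difference comes from placement was not tested. Neither an HRE core nor any of these 6 motifs was found at 42.3% of the iAs-only regions.

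Against the HIF1α regions already present in control cells, the GC box went the other way. It was found at 58.4% of the iAs-only regions, at 55.4% of those present in both conditions (difference 2.98 points, interval 0.582 to 5.38, adjusted exact p = 0.0354) and at 33.3% of the control-only regions (difference 25.1 points, interval 20.6 to 29.3, adjusted exact p = 2.8e-25). The call against the regions present in both conditions was lost with windows of 50 bp on each side (2.01 points) and with start sites up to 2 kb away (2.43 points), and it reversed over whole regions (-9.68 points), where the wider regions offer more sequence. Among CpG-rich windows the GC box stood at 60.0% of the iAs-only regions (58.8 to 61.1%) and 68.5% of the start sites with no region (67.2 to 69.8%), with no test. Beside those start sites it was thus lower, like the motifs above. CpG-rich windows made up 67.2% of the control-only regions and 94.5% of those present in both conditions (adjusted exact p = 5.5e-54 and 0.0214 against the 92.9% above). The GC content of the window had a median of 71.6% at the iAs-only regions, 68.2% at those present in both conditions and 60.2% at the control-only regions. For E2F no difference was detected, with 7.96% against 7.40% (interval of the difference -0.771 to 1.79 points, adjusted exact p = 0.534).

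In all, 11 of the 17 shares tested against the regions present in both conditions (64.7%) passed the threshold, 1 higher and 10 lower in the iAs-only set. Against the control-only regions, 9 of 17 (52.9%) passed, 2 higher and 7 lower. The lower ones included AP-1 (TGACTCA), at 0.995% against 4.57% (adjusted exact p = 2.0e-07), and the TATA box (TATAAA), at 0.777% against 3.74% (adjusted exact p = 1.4e-06). Among CpG-rich windows the AP-1 difference was 0.276 points and that of the TATA box was -1.35 points (0.822% against 2.17%). Of 10 alternatives, the AP-1 difference passed the threshold in 8 and that of the TATA box in 8. Among the losses for the TATA box was the limit of 100 bp from a start site (-1.85 points, adjusted exact p = 0.0656).

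**Figure D2:**
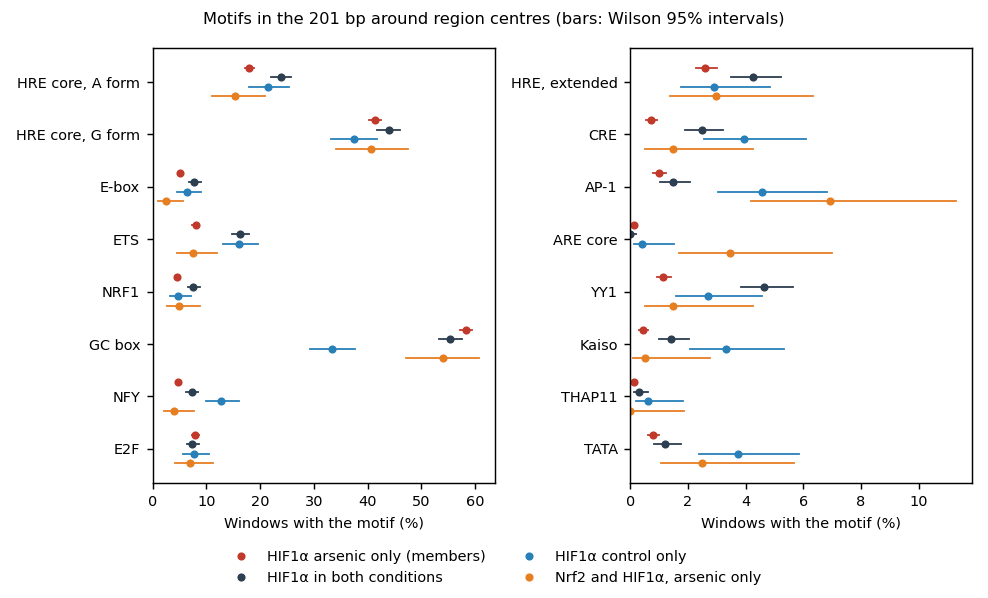
Share of windows (100 bp on each side of the centre) that held each motif (x, in %) in 4 sets of regions near start sites; points are shares and bars are Wilson 95% intervals over regions. The ETS, YY1 and CRE motifs stood at 8.0%, 1.13% and 0.709% in the iAs-only regions, to the left of the 16.3%, 4.65% and 2.47% of the HIF1α regions in both conditions.

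The ETS and YY1 motifs were more frequent near start sites, and the iAs-only regions lay farther from them, so the shares were also compared by distance. Where the centre was within 100 bp of a start site, the ETS motif was found at 13.3% of 2424 iAs-only regions (12 to 14.7%) and at 21.2% of 1233 regions present in both conditions (19.0 to 23.5%). Between 100 and 250 bp the shares were 5.91% and 9.82%, and beyond 250 bp they were 5.0% and 8.30%. The YY1 motif was found at 2.43% against 6.24% within 100 bp, at 0.591% against 2.62% between 100 and 250 bp, and at 0.417% against 1.89% beyond that. ACGTG varied less with distance, at 19.9%, 16.4% and 17.4% of the iAs-only regions in the 3 bands, beside 24.4%, 21.4% and 26.8%. Among centres within 100 bp, 5 of the 17 shares passed the threshold: ACGTG, ETS, YY1 and the CRE were lower and the GC box was higher, whereas TACGTG, the E-box, NRF1, NFY and Kaiso did not pass. Those 5 still stood lower in the iAs-only regions, with TACGTG at 2.56% against 3.97%, the E-box at 6.97% against 8.52%, NRF1 at 7.67% against 9.49%, NFY at 7.10% against 8.19% and Kaiso at 0.866% against 1.78%. With fewer regions compared, the lost calls do not show that the shares were alike.

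**Figure D3:**
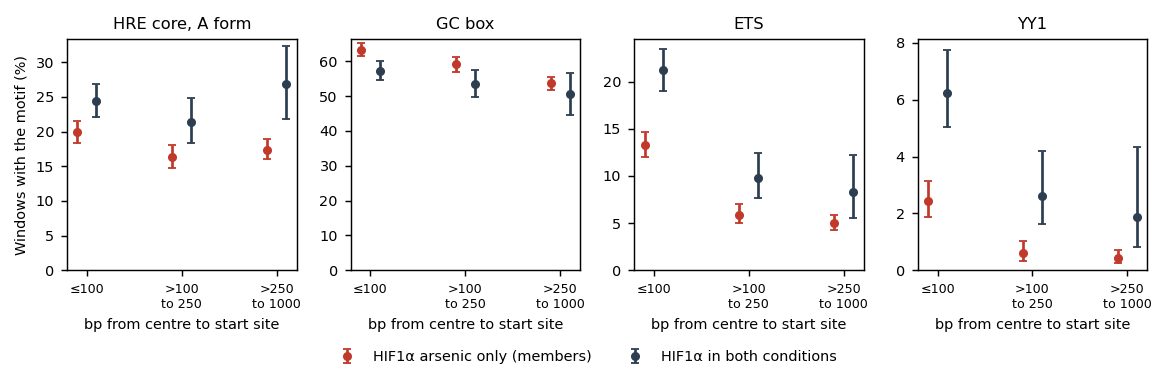
Share of windows with 4 motifs (y, in %) by the distance of the region centre from the nearest start site (x, 3 bands in bp), for iAs-only HIF1α regions and HIF1α regions in both conditions; bars are Wilson 95% intervals. In every band the ETS and YY1 points of the iAs-only regions lie below those of the other set, from 13.3% against 21.2% for ETS within 100 bp to 0.417% against 1.89% for YY1 beyond 250 bp.

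Around the centre of the iAs-only regions some of the promoter motifs, among them ETS and YY1, formed a low hump. The central 100 bp held the ETS motif at 4.27% of the regions and the YY1 motif at 0.586%, which was 2.16 and 3.07 times their share at 400 to 500 bp, while the ratios at the regions present in both conditions were 3.84 and 11.4. In the iAs-only regions the ratio was also above 1 for the CRE (2.30), NRF1 (1.64), E2F (1.60) and the GC box (1.41). It was 1.00 for Kaiso, 0.732 for NFY and 0.400 for THAP11, which thus showed no hump. In the iAs-only windows, 83 matches of the YY1 motif lay at a median of 12 bp downstream of the start site, and 80.7% of them read in the direction of the gene. The example at NCOR1, a nuclear receptor corepressor, lay 4 bp downstream of the start, that at MAML1, a coactivator of Notch, 25 bp downstream, and that at ABI2, a regulator of actin assembly, 32 bp downstream. The 53 CRE matches lay at a median of 37 bp upstream, as at RCE1, a protease that processes prenylated proteins (38 bp upstream), and RAI1 (35 bp upstream). The 1913 matches of ACGTG were more spread, from 73 bp upstream to 249 bp downstream at the quartiles, and 54.7% read in the direction of the gene.

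**Figure D4:**
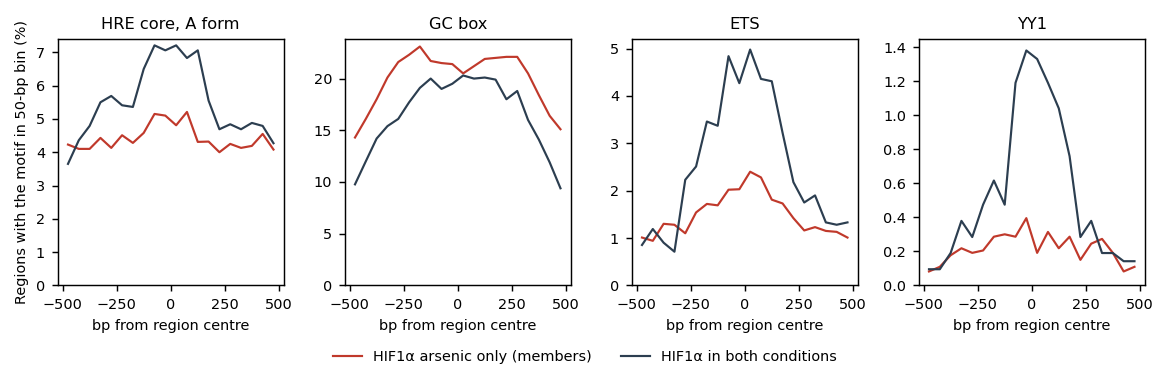
Share of regions with 4 motifs in 50-bp bins (y, in %) along the distance from the region centre (x, in bp), for iAs-only HIF1α regions and HIF1α regions in both conditions; the lines carry no error. The central 100 bp held the A form of the HRE core at 9.50% and 13.7% of the 2 sets, and the YY1 motif at 0.586% and 2.70%.

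Across region widths, the share with ACGTG stayed within overlapping intervals, whereas the ETS motif and the GC box were more frequent in some of the wider classes. From the narrowest of 4 equal classes of the iAs-only regions (188 to 239 bp) to the widest (463 to 1978 bp), ACGTG was found at 17.7%, 18.4%, 17.1% and 18.6%. The ETS motif stood at 7.13%, 6.99% (5.91 to 8.25%), 9.69% (8.41 to 11.1%) and 8.23%, so that the intervals of the middle classes did not overlap. The GC box stood at 54.1% in the narrowest class (51.8 to 56.4%) and at 60.8% in the widest (58.5 to 63.0%), and AP-1 at 1.08% and 0.545%, with overlapping intervals (0.700 to 1.66% and 0.296 to 1.0%).

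Counts of all six-base words, each pooled with its reverse complement, compared the sets without a choice of motifs. With an adjusted p under 0.05 and a difference of at least 5 points, 85 words (4.09%) differed between the iAs-only regions and those present in both conditions, 69 more frequent and 16 less frequent in the iAs-only set. The words with the largest deficit were ATGGCG, the core of the YY1 motif (11% against 22.8%, adjusted exact p = 4.5e-36), followed by CGGAAG (17.2% against 28.3%), CCGGAA (15.5% against 26.1%), ACTTCC (10.9% against 18.3%) and GCGGAA (14.1% against 21.2%), which hold the GGAA of ETS sites or its complement. The words with the largest excess held only C and G: GCGCCC (52.8% against 38.8%, adjusted exact p = 7.6e-27), CCGGGC (55.4% against 42.3%), CGGGGC (58.4% against 45.4%), CCCCGG (51.9% against 39.1%) and CCCGGG (37.7% against 25.2%). With windows of 50 bp on each side, 37 words passed.

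The 202 regions that both Nrf2 and HIF1α gained with iAs are set beside the HIF1α-only set as a description, since the rule kept regions with an Nrf2 peak out of the one set and required one in the other. AP-1 was found at 6.93% of them against 0.995%. The core of the antioxidant response element (TGACTCAGC), which Nrf2 binds with small MAF proteins and which contains TGACTCA, was found at 3.47% against 0.109%. These were the 2 of 17 shares (11.8%) past the threshold, and as sites of Nrf2 or its relatives they are not independent of the rule. For the ETS motif (8.0% against 7.43%, interval of the difference -3.93 to 3.52 points, adjusted exact p = 0.932) and ACGTG (18% against 15.3%, interval -3.07 to 7.02 points, adjusted exact p = 0.534) the 202 regions were too few to set narrow limits.

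The iAs-only regions lay within 1 kb of a start site of 6365 of 19807 protein-coding genes (32.1%). An interval of the iAs HIF1α library lay at a start site of 8867 genes, and 71.8% of these had an iAs-only region. Of the 7334 regions, 890 (12.1%) lay within 1 kb of start sites of at least 2 genes and were counted for each. Among genes named below, this holds for the regions of PFKM, PGAM1, NFE2L2, AHR, SQSTM1, MCM7, GINS1 and UBE2O, as well as for those described as shared. There were 1552 genes with at least 2 such regions, the most being 9 at PLEC, which encodes the cytoskeletal linker plectin and has many alternative start sites. A separate HIF1α region present in both conditions also lay at a start site of 568 of the 6365 genes (8.92%), so that these genes carried regions of both kinds. The share of genes with an iAs-only region was 44% of the 13372 genes whose canonical start site was CpG-rich, and 7.68% of the other 6143. By chromosome it was 0 of the 46 genes on Y, and on the others it ran from 16.5% of the genes on X to 42.0% on chromosome 13. Gene groups, taken from lists of gene names, are therefore set beside both backgrounds, 32.1% of all genes and 44% of genes with a CpG-rich start, with no test.

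Genes of the HIF system itself carried iAs-only regions at 15 of 22 (68.2%), all 22 with a CpG-rich start. HIF1A had a region of 228 bp centred 288 bp upstream of its start site, with the ACGTG shown above 267 bp upstream and a GCGTG. EPAS1, which encodes HIF2α, had one of 1289 bp centred 910 bp downstream, in the first kilobase of the gene, and ARNT, the partner subunit, one of 219 bp centred 322 bp downstream. Among the factors that degrade or restrain HIF1α, VHL had a region of 492 bp at 99 bp downstream, with an ETS motif and no HRE core. EGLN2, a prolyl hydroxylase, had one of 272 bp at 51 bp upstream, and HIF1AN, the asparaginyl hydroxylase, one of 330 bp at 519 bp downstream, which was shared with the start site of NDUFB8 (273 bp from the centre). SIAH2, a ubiquitin ligase that acts on the hydroxylases, had one of 1001 bp at 94 bp upstream. The coactivators EP300 (396 bp) and CREBBP (679 bp) had regions too. Of the 15 genes, 4 held an HRE core in the window of their widest iAs-only region, beside 51.5% of all iAs-only regions. A region present in both conditions also lay at 4 of the 15.

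Glycolysis and glucose uptake had iAs-only regions at 13 of 25 genes (52.0%), while 22 of the 25 (88.0%) had some HIF1α region with iAs, beside 44.8% of all genes. Of the glucose transporters, SLC2A1 had a region of 943 bp centred 409 bp downstream, with GCGTG and an ETS motif, and SLC2A3 one of 207 bp at 122 bp upstream. The hexokinases HK2 and HK1, which catalyse the first step, had regions of 1310 bp at 500 bp upstream and 1054 bp at 283 bp upstream. HK1 held both forms of the HRE core and HK2 neither. The 3 phosphofructokinase genes were all present, PFKP with 1285 bp, PFKM with 590 bp and PFKL with 308 bp, together with PFKFB3 (734 bp), which makes the activator of phosphofructokinase. Farther down the pathway, PGAM1 (785 bp), ENO3 (935 bp, shared with the start of PFN1), LDHA (419 bp at 248 bp upstream) and the lactate exporter SLC16A3 (683 bp, the widest of its 4 regions) were found. Of the 13 genes, 8 held an HRE core in the window of their widest iAs-only region, beside 51.5% of all iAs-only regions.

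Among established HIF targets outside glycolysis, 20 of 37 (54.1%) had an iAs-only region, and 34 of the 37 (91.9%) had some HIF1α region with iAs, beside 44.8% of all genes. VEGFA, the angiogenic growth factor, had the widest (1264 bp centred 56 bp downstream), with both forms of the HRE core and the ACGTG shown above 127 bp downstream of the start. STC2 (1039 bp), LOX, a collagen crosslinking enzyme (867 bp), ERO1A, an oxidase of protein folding (683 bp), and BNIP3, a mitophagy receptor (378 bp), held GCGTG. ADM, the vasodilator peptide adrenomedullin (498 bp), and CA12, a carbonic anhydrase (228 bp), held it too. The regions of MXI1 (415 bp), BHLHE40 (428 bp), DDIT4 (251 bp) and KDM4C (594 bp) held neither form. In all, 11 of the 20 held an HRE core, beside 51.5% of all iAs-only regions.

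The pathways that branch from glycolysis were measured by their enzyme lists. The hexosamine pathway, which makes the sugar donor for O-GlcNAc, had iAs-only regions at 5 of 8 genes (62.5%). GFPT1 (609 bp at 74 bp upstream) and GFPT2 (810 bp at 35 bp downstream) encode the enzyme at its entry. GNPNAT1 (307 bp) and UAP1 (738 bp at 91 bp downstream) act farther on, and PGM1 (970 bp at 17 bp upstream), a phosphoglucomutase, was counted with them. GFPT1, GFPT2, UAP1 and PGM1, 4 of the 5, held both ACGTG and GCGTG, and GNPNAT1 held neither. Serine, glycine and one-carbon enzymes had regions at 10 of 20 genes (50%), of which 8 held an HRE core. These counts refer to the window of the widest iAs-only region of each gene, and an HRE core of either form was present at 51.5% of all iAs-only regions. In both lists 100% of the starts were CpG-rich, and of all genes with such a start 44% had an iAs-only region. The counts are small and were not tested. Among the serine, glycine and one-carbon genes with a region were PHGDH (408 bp) and PSAT1 (634 bp) of serine synthesis, SHMT1 (530 bp at 39 bp upstream), which moves a carbon from serine to folate, and MAT2A (1155 bp at 215 bp downstream), which makes S-adenosyl methionine.

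Genes that control Nrf2 and genes that Nrf2 controls were counted next. Of 18 regulators and partners, 11 (61.1%) had an iAs-only HIF1α region, among them NFE2L2, which encodes Nrf2 itself (715 bp at 58 bp upstream), the small MAF genes MAFG (455 bp) and MAFK (340 bp), the repressors BACH1 (284 bp) and BACH2 (503 bp), the kinase GSK3B (809 bp), the aryl hydrocarbon receptor AHR (742 bp) and ATF4 (1610 bp). Of 32 established Nrf2 targets, 8 (25%) had one, among them ABCC3 (696 bp), SQSTM1 (418 bp) and EPHX1 (258 bp). Some HIF1α region with iAs lay at 22 of these 32 targets (68.8%) and at 16 of the 18 regulators (88.9%), beside 44.8% of all genes. The rule leaves out regions with an Nrf2 peak, so the iAs-only share at Nrf2 targets is in part set by it. Of the regulators, 18 of 18 had a CpG-rich start, and of the targets 75%, and the difference between the lists was not tested. The integrated stress response had regions at 12 of 19 genes (63.2%), with ATF4, XBP1 (785 bp), CHAC1 (757 bp) and TRIB3 (731 bp) the widest.

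Groups of genes with basic cell functions are given next, by the kind of HIF1α region they carried. Over all 19807 genes, 32.1% had an iAs-only region and 12.4% a region present in both conditions. DNA replication proteins had iAs-only regions at 26 of 41 genes (63.4%) and regions present in both conditions at 22.0%, with MCM7 (1213 bp), GINS1 (874 bp), MCM6 (808 bp) and ORC2 (594 bp) the widest. Nuclear pore proteins had them at 16 of 27 (59.3%), with NUP50 (876 bp) the widest, ubiquitin-conjugating enzymes at 19 of 34 (55.9%), with UBE2O (880 bp), and histone lysine demethylases at 12 of 20 (60.0%), with KDM2B (972 bp). Cytosolic ribosomal proteins had an iAs-only region at 20 of 86 genes (23.3%, interval 15.6 to 33.2%) and a region present in both conditions at 45.3%. Of their starts, 91.9% were CpG-rich. Translation initiation factors showed the same order, 28.2% against 48.7%. Some HIF1α region with iAs lay at 77.9% of the ribosomal genes and 79.5% of the initiation factors, beside 44.8% of all genes. The rule leaves out regions with a control peak, so a low iAs-only share is in part set by it. In iAs-only share, proteasome subunits stood at 23.1%, mitochondrial ribosomal proteins at 30.4%, complex I subunits at 34.2%, heat shock proteins and chaperones at 42.4%, DNA repair proteins at 45.5%, and the 508 zinc finger genes named ZNF at 31.1%. Of the other lists, autophagy proteins stood at 47.4%, RNA polymerase subunits at 43.3%, spliceosome proteins at 39.6%, Mediator subunits at 33.3%, aminoacyl-tRNA synthetases at 29.7%, other respiratory chain and ATP synthase subunits at 28.2%, and core histones with H1 at 27.9%. Keratins had regions at 4 of 55 genes (7.27%) and olfactory receptors at 0 of 381 (upper Wilson limit 0.998%), and 7.27% and 1.05% of their starts were CpG-rich.

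Of the 14 genes that the study discusses as stemness genes, 11 (78.6%, interval 52.4 to 92.4%) had an iAs-only region. EGFR, a growth factor receptor, had the widest (928 bp centred 919 bp downstream), followed by NAMPT, the enzyme of NAD salvage (627 bp), NOTCH2 (471 bp) and ZEB1, a factor of epithelial-mesenchymal transition (395 bp). This list was chosen by the study on these same libraries, so its share is not independent of them.

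**Figure D5:**
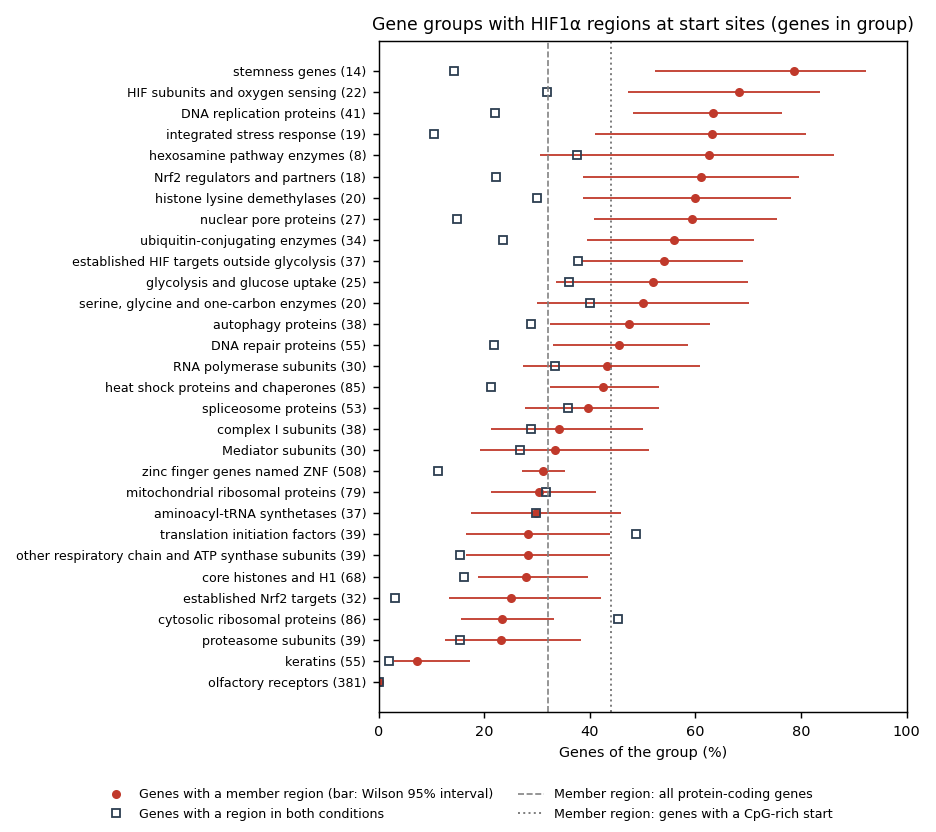
Share of the genes in each of 30 groups (x, in %) with an iAs-only HIF1α region at a start site (circles, Wilson 95% intervals) and with a HIF1α region present in both conditions (squares, 12.4% over all genes); the vertical lines mark 32.1% of all protein-coding genes and 44% of genes with a CpG-rich start. Cytosolic ribosomal proteins lie at 23.3% for the first and 45.3% for the second, and DNA replication proteins at 63.4% and 22.0%.

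The surroundings of the 6365 genes held more regions of every class examined than those of genes with no region at a start site. A HIF1α region that only the control library held lay within 50 kb of a start site at 15.5% of the genes with an iAs-only region, at 14.3% of the 1889 genes that had a region present in both conditions and no iAs-only region, and at 7.79% of the 10400 genes with no region. Regions of Nrf2 that only the iAs library held lay within 50 kb at 19.8%, 16.3% and 10.4% of these sets, and Nrf2 regions present in both conditions without HIF1α at 11.7%, 9.53% and 6.35%. Of the 6365 genes, 984 therefore had a control-only HIF1α region within 50 kb, and the others had none. Because these classes are built from the same peaks as the rule, the values are a description.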

How the data were processed

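The deposited file gives the start and end of every peak on hg19 and the regions that the authors merged over the 4 ChIP libraries, as base positions and without heights or scores of peaks. The authors down-sampled the tags and called peaks with MACS or SICER per the methods, while the submitters' processing notes name BWA and MACS2 2.1.0. The depth behind a peak is unknown here. Starts were changed to 1-based. Merged regions were classed by the libraries with an interval overlapping by at least 1 bp. Start sites came from 89217 protein-coding transcripts of GENCODE release 44 on GRCh37, the build of the files. The input DNA sample was not analysed here.

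Motifs were counted on both strands within 100 bp of the region centre, or of the start site itself for the sets of start sites. Each pair of shares was put to a two-sided Fisher's exact test with Newcombe intervals, and the p-values of 16 motifs and the CpG-rich share against 3 sets were adjusted together (Benjamini-Hochberg); words were adjusted over all words. Regions of 1 library are not independent replicates of a treatment. The tests were tested on simulated data. Genes named are those at the 10 widest regions, up to 4 with the widest region in each list, and any with a region in the 6 lists on HIF, Nrf2 regulators and glucose metabolism; PLEC was named after its count was seen. Sequences were taken from the 3 widest regions with each motif and from those lists, and only some are printed; some items are not reported here. The set of regions, the gene lists and the motifs were chosen with earlier results of these data known. Python 3.11.15, SciPy 1.17.1, pandas 2.3.3 and pysam 0.24.0 were used. Alternatives were 500 bp, 2 kb and (chosen after seeing the data) 100 bp from a start site, canonical or (after seeing the data) basic transcripts, another library within 500 bp counted as shared, the wider 50% of peaks, autosomes and X, 50 bp on each side, whole regions and CpG-rich windows.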

Additional observations from a re-analysis of the deposited data

How the results depend on the processing

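No paired analysis was possible because each group holds 1 library, and for the same reason no library could be left out. Over 11 alternatives the deficits against HIF1α regions present in both conditions kept their direction and passed the threshold for ACGTG (-22.0 to -3.92 points), ETS (-19.7 to -4.22), YY1 (-6.52 to -2.09) and the CRE (-4.03 to -1.18). Of 229 values of called differences, 210 kept their call, 16 fell short of the threshold and 3 reversed. The deficit in CpG-rich windows (-1.62 points) fell short within 500 bp (-0.519), with canonical (-1.09) or basic transcripts (-1.29), with a 500-bp gap (-0.524), among the wider 50% (-0.487) and with 50 bp on each side (-0.473), and reversed within 100 bp (0.830). Over whole regions, which are wider in the comparison sets, 8 shares passed against the regions of both factors, and the reversals were ACGTG (-14.1 points), GCGTG (-14.0) and the GC box (-8.87) against that set, and the GC box (-9.68) and E2F (-6.59) against the regions present in both conditions. AP-1 against control-only regions reversed among CpG-rich windows (0.276). The wider 50% of peaks left 3305 regions at 3405 genes, by construction fewer, and moved 22 gene-group counts by over 1.5 times. Control-only regions hold no iAs peak, so this alternative gave no comparison with them. The limit of 100 bp left 2424 regions at 2419 genes and 5 of the 17 shares. With 50 bp on each side, 37 words passed. The groups with a share above that of all genes numbered 18 to 21 of 30. Within 10 and 100 kb, 5.99% and 24.4% of the genes had a control-only HIF1α region, and 6.74% and 31.0% an Nrf2 region of the iAs library alone. Read depth, peak heights and cultures are the limits of all values.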
